A study of Homo sapiens with 6 samples.

Results

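Of the 1705 genes listed in the deposited table of PC9 and PC9-GR cells, 7 encode secreted immune signals or a receptor that clears them. They were taken by gene symbol: the cytokines IL32, IL18, IL1B and CSF2, the chemokines CCL2 and CXCL3, and the atypical chemokine receptor ACKR2. Each of the 7 symbols matched 1 row. PC9 is a human lung adenocarcinoma line described in the labels as epithelial, and both groups carry the same exon 19 deletion of EGFR. The PC9 group is the parental line, with 3 libraries. PC9-GR, also with 3 libraries, is 1 resistant derivative selected by raising gefitinib, an EGFR kinase inhibitor, from 0.5 to 10 µM, kept at 10 µM and then grown for 7 days without the drug before RNA was taken. The libraries came from independent cultures of these 2 lines, so the p-values measure the spread between cultures and not between separate selections of resistant cells.

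The table lists only genes that the authors had already chosen as different: its smallest absolute log2 ratio is 1.00 and its largest p-value 0.0497, both from the authors' deposited table. Every test below is therefore conditional on that choice. Values are FPKM, sequenced fragments scaled by transcript length and by the size of the library, which can be set side by side between genes because they are per length. Read depth is unknown, and no counting interval can be given. Summed over the listed genes, FPKM lay between 28346 and 30541 for the PC9 libraries and between 16705 and 17114 for the PC9-GR libraries. None of the 12 epithelial markers searched is in the table, so the labelled cell type could not be compared with them.

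Cytokines are small secreted proteins that cells use to signal inflammation, growth or recruitment, and chemokines are the subset that directs the migration of cells. IL-1 beta and IL-18 are made as inactive precursors that caspase-1 cleaves inside inflammasomes, and the IL-1 receptor antagonist and the decoy receptor IL1R2 hold the IL-1 signal in check. Chemokines act through G-protein-coupled receptors on leukocytes, whereas atypical receptors such as ACKR2 bind chemokines without classical signalling and carry them inside the cell for degradation. Epithelial and tumour cells make many of these proteins themselves, and NF-kB is a widely used activator of their genes.

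Of the 7 members, 4 had an entry in the RefSeq promoter table (build GRCh38.p14): IL32, CSF2, IL1B and CXCL3. CCL2, IL18 and ACKR2 did not match. Because the CXC chemokine genes CXCL3, CXCL1 and CXCL6, neighbours on chromosome 4, were higher in each PC9-GR library, and IL32 had the largest rise of the members on the log2(FPKM + 1) scale (CCL2 had the larger with smaller pseudocounts), their last 120 bases before the annotated start are shown, 5′ to 3′ on the strand of the gene. Capitals mark matches to an NF-kB-like motif, which reads GGG, then any 3 bases, then TTCC, and was searched on both strands (on the other strand GGAA, any 3 bases, CCC).
CXCL3, chr4:74038690-74038809, minus strand: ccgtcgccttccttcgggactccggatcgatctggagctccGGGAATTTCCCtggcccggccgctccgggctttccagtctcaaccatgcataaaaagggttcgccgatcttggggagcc
CXCL1, chr4:73869273-73869392, plus strand: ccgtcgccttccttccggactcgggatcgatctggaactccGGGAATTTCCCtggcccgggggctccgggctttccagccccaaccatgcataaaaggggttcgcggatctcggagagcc
CXCL6, chr4:73836558-73836677, plus strand: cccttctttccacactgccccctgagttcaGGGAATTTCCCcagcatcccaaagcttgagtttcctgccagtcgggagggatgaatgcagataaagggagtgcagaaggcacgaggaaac
IL32, chr16:3065283-3065402, plus strand: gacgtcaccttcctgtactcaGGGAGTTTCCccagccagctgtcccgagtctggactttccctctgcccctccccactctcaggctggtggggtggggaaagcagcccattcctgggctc

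CXCL3 and CXCL1 had the same base at 109 of these 120 positions (90.8%), and CXCL3 and CXCL6 at 40 (33.3%). In the 3 CXC stretches the same 11 bases were capitalised, because an overlapping match on each strand covers them. The first match spans positions -79 to -70 in CXCL3 and CXCL1 and -90 to -81 in CXCL6, counted back from the annotated start. IL32 has a second annotated start, whose window holds no match. The 250 bases before the start of CSF2 and of IL1B hold none either. Genes of both directions hold matches: of the other genes searched, IL1RN, which fell in PC9-GR, has one before 1 of its 3 annotated starts (-97 to -88), and EBI3, which rose, has one at -214 to -205. IL1R2, which fell, has none. Among 35116 promoter windows of that length, 5.67% hold the motif. An AP-1-like motif, TGANTCA, which reads the same on the other strand, was found in 6.57% of all windows and in no window of the 4 members, but in a window of IL1RN and in that of EBI3. A match describes letters and shows neither binding nor a cause. Only these fixed patterns were searched, so the lack of a match does not show that a binding site is absent.

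Among the members, IL32 and CCL2 rose in PC9-GR, and IL18, CSF2, IL1B and ACKR2 fell. Of the 6 members tested, 2 were called higher, beside 48.4% of all 1207 tested genes, and 4 lower, beside 51.3% (99.7% in either direction). With equal library totals the calls over all tested genes were 586 higher and 433 lower, in place of 584 and 619. A call means an adjusted p under 0.05 in limma on log2(FPKM + 1), fitted to the genes that reached 1 FPKM in 3 or more of the 6 libraries. CXCL3, the remaining member, reached 1 FPKM in 1 library only and was not part of the fit. CCL2 reached 1 FPKM only in PC9-GR and ACKR2 only in PC9, so each passed this filter through the group where it is high. Their p-values are therefore no separate support for their differences. No member's groups overlapped, which was also true of 94.8% of the listed genes. Since nearly every listed gene is called, these counts set the members apart from the table in no way, and the sizes carry the description.

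IL32, an inflammatory cytokine with no classical receptor known, was low in PC9 and among the higher values of the table in PC9-GR. The table gives it as ENSG00000008517, a protein-coding gene on chromosome 16 from 3115297 to 3137101. It measured 0.992, 1.08 and 0.717 FPKM in PC9 libraries 1 to 3 and 27.1, 25.1 and 24.7 FPKM in PC9-GR libraries 1 to 3. The PC9 libraries all lay near 1 and the PC9-GR libraries lay close together far above them. The means were 0.931 ± 0.191 and 25.6 ± 1.28 FPKM (SD, n = 3 each), a 27.5-fold difference. On the log2(FPKM + 1) scale IL32 rose by 3.79 (SE 0.127; limma adjusted p = 3.30e-08), the 2nd largest increase among the 1207 tested genes. By level it stood at place 1021 of 1705 listed genes in PC9 and at place 137 in PC9-GR.

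CCL2, which attracts monocytes through the receptor CCR2, was listed above the floor of the table in PC9-GR alone. Its locus in the table (ENSG00000108691, protein-coding) runs on chromosome 17 from 32581899 to 32584222. All 3 PC9 libraries are listed at that floor, 0.001 FPKM. The PC9-GR libraries measured 3.12, 4.58 and 3.995 FPKM, with a mean of 3.90 ± 0.737 (SD, n = 3). No fold is given against a group at the floor. The difference in log2(FPKM + 1) was 2.28 (SE 0.131; limma adjusted p = 3.63e-07), and its size follows the pseudocount, reaching 8.46 with a pseudocount of 0.01. All PC9 values are the same floor value, so the spread of CCL2 in PC9 was not measured and the SE and p-value do not reflect it. The receptor CCR2 is not among the listed genes, nor is any other of the 19 conventional chemokine receptors looked for.

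CXCL3, a neutrophil-attracting chemokine acting on CXCR2, was low in both lines. The table gives it as ENSG00000163734, a protein-coding gene on chromosome 4 from 74902305 to 74904524. It measured 0.356, 0.408 and 0.576 FPKM in PC9 and 1.07, 0.857 and 0.950 FPKM in PC9-GR. The highest PC9 library stayed below the lowest PC9-GR library. The means were 0.446 ± 0.115 and 0.959 ± 0.106 FPKM (SD, n = 3), a ratio of 2.15. The exact permutation test, two-sided, gave p = 0.1, and no design of 3 against 3 libraries can go lower. With all 1705 genes in the fit, CXCL3 had a limma adjusted p of 0.00343 at a difference in log2(FPKM + 1) of 0.44. That fit called 49.6% of the listed genes higher and 47.5% lower. Under quantile normalization the difference was 0.22 and the exact permutation p was 0.2. Its longest coding transcript in GENCODE 29 aligned to that of CXCL1 at 83.1% identity over 599 bases and to that of CXCL2 at 85.4% over 582 bases. Reads that fall in such stretches could be split between these copies, so the level of CXCL3 is uncertain.

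IL18, an IL-1 family cytokine that drives interferon-gamma release, was the most abundant member in both lines and fell in PC9-GR. Its locus in the table (ENSG00000150782, protein-coding) runs on chromosome 11 from 111895537 to 112095422. PC9 libraries measured 141.6, 141.9 and 148.8 FPKM, and PC9-GR libraries 39.99, 52.2 and 47.9 FPKM. The PC9 values were almost equal, and the highest PC9-GR value was far below the lowest of them. The means were 144.1 ± 4.05 and 46.7 ± 6.19 FPKM (SD, n = 3), a 3.09-fold difference. On the log2(FPKM + 1) scale IL18 fell by 1.61 (SE 0.113; limma adjusted p = 1.01e-06). That difference was -0.78 under quantile normalization and -0.82 with equal library totals. The table places IL18 in a locus of 199886 bp, 9.58 times the length of the gene in GENCODE 29, where 1 protein-coding gene, AP002884.3, overlaps it. Only whole gene spans were compared, so the share of reads that could come from either gene is not known. Whether the counting used strand is not given in the sources used here.

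IL1B, which encodes the precursor of IL-1 beta, varied most between PC9 libraries relative to its mean. The table gives it as ENSG00000125538, a protein-coding gene on chromosome 2 from 113587327 to 113594480. Its PC9 libraries measured 10.2, 5.44 and 8.30 FPKM, and its PC9-GR libraries 3.52, 3.73 and 2.81 FPKM. Library 2 of PC9 was the lowest of its group and still lay above every PC9-GR library. The means were 7.98 ± 2.40 and 3.36 ± 0.487 FPKM (SD, n = 3), a 2.38-fold difference. On the log2(FPKM + 1) scale IL1B fell by 1.01 (SE 0.202; limma adjusted p = 0.000741). With equal library totals the difference was -0.35 and the call was lost (limma adjusted p = 0.133), while every other alternative gave an adjusted p between 0.000114 and 0.00341.

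CSF2 encodes GM-CSF, which supports the growth and activation of granulocytes and macrophages. Its locus in the table (ENSG00000164400, protein-coding) runs on chromosome 5 from 131409482 to 131411859. It measured 3.37, 4.28 and 4.47 FPKM in PC9 and 1.27, 0.710 and 1.22 FPKM in PC9-GR. The groups did not overlap, and library 2 of PC9-GR was the lowest. The means were 4.04 ± 0.590 and 1.07 ± 0.311 FPKM (SD, n = 3), a 3.79-fold difference. On the log2(FPKM + 1) scale CSF2 fell by 1.29 (SE 0.16; limma adjusted p = 3.16e-05), and the difference was -0.77 with equal library totals.

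ACKR2, which removes inflammatory CC chemokines, CCL2 among them, was present in PC9 and near the bottom of the table in PC9-GR. The table gives it as ENSG00000144648, a protein-coding gene on chromosome 3 from 42846243 to 43101703. PC9 libraries measured 11.7, 11.6 and 9.59 FPKM. PC9-GR libraries measured 0.383, 0.407 and 0.0334 FPKM, of which library 3 was far below the other two. The means were 10.9 ± 1.17 and 0.274 ± 0.209 FPKM (SD, n = 3), a 39.9-fold difference whose size rests on values near 0. On the log2(FPKM + 1) scale ACKR2 fell by 3.24 (SE 0.163; limma adjusted p = 1.85e-07), the 9th largest decrease among tested genes, and the difference was -5.83 with a pseudocount of 0.01. The table's locus for ACKR2 is 255461 bp long, 3.07 times the gene in GENCODE 29, and the protein-coding genes AC092042.3, KRBOX1 and CYP8B1 overlap the gene there. How fragments were divided among these genes is not known, which makes its values uncertain.

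**Figure D1:**
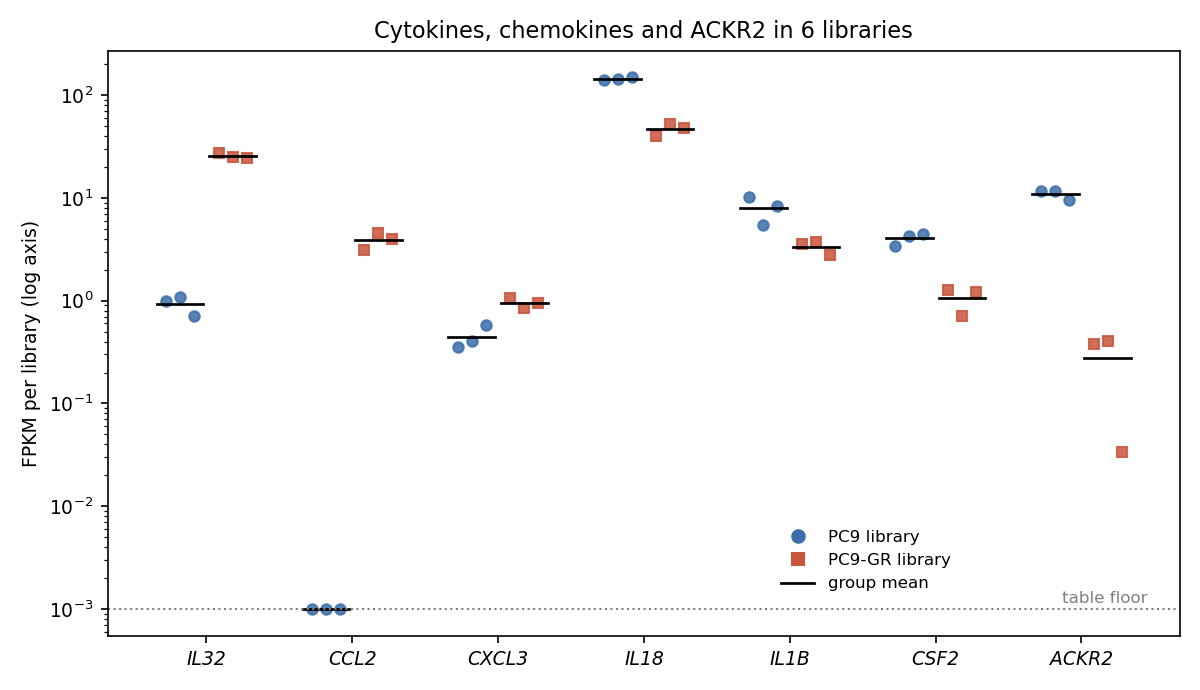
FPKM of each member in each library on a log axis, with PC9 as circles, PC9-GR as squares, bars at group means and a dotted line at the table floor of 0.001 FPKM. IL32, CCL2 and CXCL3 lie higher in PC9-GR, the other members lie lower, and ACKR2 in PC9-GR library 3 (0.0334 FPKM) stands below the other two.

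The order of the members changed between the lines. In PC9 it ran IL18, ACKR2, IL1B, CSF2, IL32, CXCL3 and CCL2, and the ranges of ACKR2 and IL1B overlapped. In PC9-GR it ran IL18, IL32, CCL2, IL1B, CSF2, CXCL3 and ACKR2, with overlapping ranges for CCL2 and IL1B and for CSF2 and CXCL3. The other neighbours in either order did not overlap.

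As deposited, the median tested gene differed by -0.63 in log2(FPKM + 1), PC9-GR minus PC9. Scaling to equal library totals moved that median by 0.47, quantile normalization by 0.34 and median-ratio scaling by -0.14, each computed over the listed genes alone. Relative to the median of each scaling, IL32 lay 4.26 to 4.54 above it, CCL2 2.52 to 2.91 above and CXCL3 0.51 to 1.08 above. The distance of ACKR2 from the median was -2.88 to -2.61, that of IL18 -1.15 to -0.49, that of CSF2 -1.14 to -0.62 and that of IL1B -0.73 to -0.19. No member changed direction in any of the 4 scalings, though IL1B came close to the median of the tested genes. That median belongs to a list chosen without genes of small change, so it does not mark the level of no change.

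**Figure D2:**
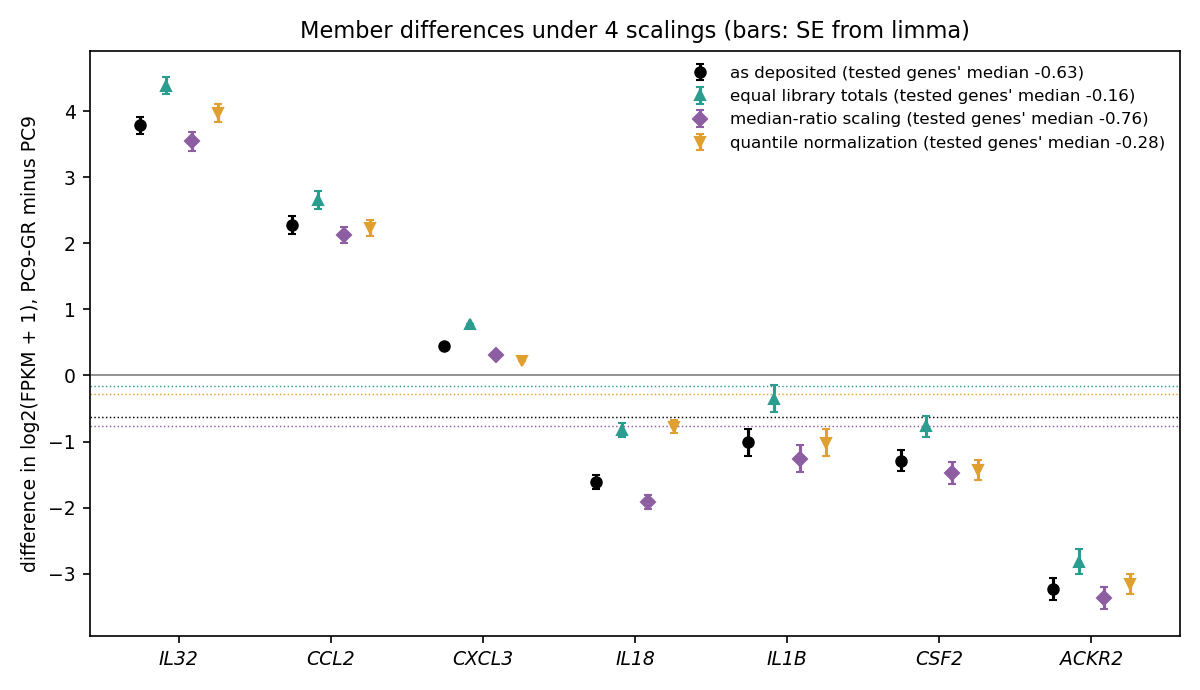
Difference in log2(FPKM + 1), PC9-GR minus PC9, for each member under 4 scalings, with bars for the limma SE (CXCL3 was not in the fit and has none) and dotted lines at the median of tested genes. IL32, CCL2 and ACKR2 lie far from those medians, and IL1B with equal library totals (-0.35) lies nearest to its line.

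IL1B and IL18 fell in PC9-GR, and so did 2 listed inhibitors of IL-1. IL1RN, the receptor antagonist that blocks IL-1, measured 4.37 ± 0.559 FPKM in PC9 and 0.901 ± 0.250 in PC9-GR (SD, n = 3), a 4.85-fold fall (limma adjusted p = 7.51e-06). IL1R2, the decoy receptor that binds IL-1 without signalling, went from 19.4 ± 2.64 to 4.70 ± 0.778 FPKM, a 4.13-fold fall (limma adjusted p = 1.79e-06). These 2 were the only genes in the table among 13 receptors and soluble inhibitors of the member cytokines, and both kept their calls under the other 3 scalings. The ratio of IL1B to IL1RN within a library is not changed by scaling each library with 1 factor, though quantile normalization can change it. It was 2.73, 1.13 and 1.81 in PC9 and 2.97, 5.12 and 3.58 in PC9-GR, and every PC9-GR library was above the highest PC9 library. This ratio is one of 6 chosen after the values were seen (exact permutation p = 0.1, the smallest possible, and 0.12 after Benjamini-Hochberg adjustment over the 6). The ratio of IL18 to IL1B overlapped between the groups, at 13.9, 26.1 and 17.9 in PC9 and 11.3, 14.0 and 17.1 in PC9-GR (exact permutation p = 0.3).

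Among 21 genes of inflammasomes and pyroptosis, 7 are in the table, and of the 4 tested 3 were called higher and 1 lower. The sensor NLRP1 rose 7.97-fold, from 1.90 ± 0.285 to 15.2 ± 1.12 FPKM. PYCARD, the adaptor ASC, rose 2.47-fold and DFNA5, the pore-forming gasdermin E, 2.75-fold. TXNIP, a binder of thioredoxin, fell 3.06-fold. CASP1, the protease that matures IL-1 beta and IL-18, did not reach the filter, with 0.244 ± 0.165 FPKM for PC9 and 0.654 ± 0.306 for PC9-GR (exact permutation p = 0.1). It shares its locus in the table with CARD16, whose groups overlapped, and NAIP was below the filter as well. The median difference in log2(FPKM + 1) of the 4 tested genes was 1.25, beside -0.63 for all tested genes.

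Of 49 interleukins and related ligands, 7 are in the table, of which 2 were called higher and 4 lower. Beyond the members, EBI3, a shared subunit of IL-27 and IL-35, rose 6.23-fold from 0.706 ± 0.149 to 4.399 ± 1.20 FPKM. IL17D fell 2.39-fold, from 9.15 ± 0.240 to 3.83 ± 0.396 FPKM. IL24 was listed at the floor in PC9 and measured 2.46, 0.0848 and 0.0745 FPKM in PC9-GR, so its level rests on library 1 alone. The median difference of the 6 tested interleukins was -1.04.

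The other listed CXC chemokines, CXCL1 and CXCL6, rose in PC9-GR. CXCL1, a neutrophil attractant, measured 1.39, 1.60 and 1.48 FPKM in PC9 and 10.9, 7.01 and 7.02 FPKM in PC9-GR, a 5.57-fold rise (limma adjusted p = 5.18e-06). CXCL6, which acts on CXCR1 and CXCR2, rose 3.73-fold, from 1.24 ± 0.0236 to 4.62 ± 0.559 FPKM (limma adjusted p = 7.58e-06). The ratio of CXCL1 to CXCL3 was 3.91, 3.91 and 2.58 in PC9 and 10.2, 8.18 and 7.39 in PC9-GR, with no overlap. Its exact permutation p was 0.1, the smallest possible, and 0.12 after Benjamini-Hochberg adjustment over the 6 ratios, which were chosen after the values were seen. Reads could be split between these similar copies and CXCL3 was low, so the size of this ratio is uncertain. CXCL1, CXCL3 and CXCL6 were the listed genes among 21 CXC, CX3C and XC chemokines, and all 3 lie within 202.3 kb on chromosome 4 (74702213 to 74904524 by the loci of the table, which name no build). Of 28 CC chemokines only CCL2 and CCL22 are listed. CCL22, a ligand of CCR4, was called lower at 1.33 ± 0.518 FPKM in PC9 and 0.478 ± 0.130 in PC9-GR (limma adjusted p = 0.00241), a call lost with equal library totals (limma adjusted p = 0.0956).

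CSF2 fell, and the other listed colony stimulating factors rose. CSF1, the macrophage growth factor, rose 2.08-fold, from 16.4 ± 2.28 to 34.1 ± 2.90 FPKM (limma adjusted p = 2.53e-05). FLT3LG, a dendritic cell growth factor, rose 3.06-fold, from 0.876 ± 0.0767 to 2.68 ± 0.534 FPKM (limma adjusted p = 7.47e-05). The q-value of FLT3LG in the authors' deposited table was 0.0641, against 0.000285 for CSF1. Of 5 such factors 3 are listed. The ratio of CSF2 to CSF1 was 0.216, 0.226 and 0.306 in PC9 and 0.0366, 0.0194 and 0.0395 in PC9-GR (exact permutation p = 0.1). CSF2 fell and CSF1 rose, each without overlap, so the separation of this ratio follows from them and is no further support. It is also one of the 6 ratios chosen after the values were seen.

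ACKR3, the other atypical receptor listed among the 9 names searched, rose as ACKR2 fell. ACKR3, which scavenges CXCL12, measured 18.4 ± 3.47 FPKM in PC9 and 39.5 ± 2.06 in PC9-GR, a 2.14-fold rise (limma adjusted p = 2.91e-05). The ratio of ACKR2 to ACKR3 was 0.698, 0.516 and 0.593 in PC9 and 0.0102, 0.00979 and 0.000845 in PC9-GR. The ratio was lower in each PC9-GR library than in any PC9 library (exact permutation p = 0.1). Since ACKR2 fell and ACKR3 rose, each without overlap between the groups, this separation had to follow and is no further support. The pair is among the 6 ratios chosen after the values were seen.

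**Figure D3:**
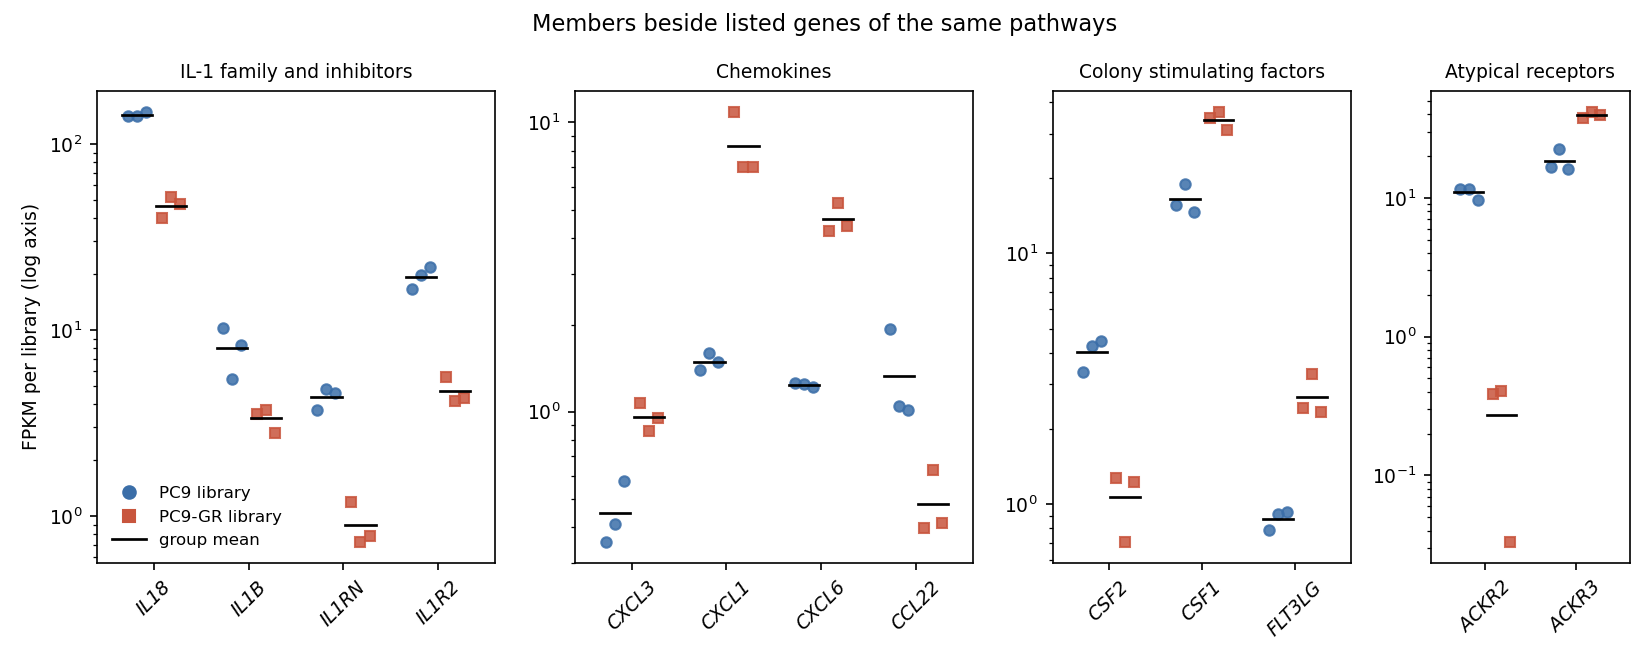
FPKM per library on log axes for members beside listed genes of the same pathways, with PC9 as circles, PC9-GR as squares and bars at group means. All 4 genes of the first panel lie lower in PC9-GR, CXCL3, CXCL1 and CXCL6 lie higher, and CSF2 and ACKR2 move against the genes beside them.

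**Figure D4:**
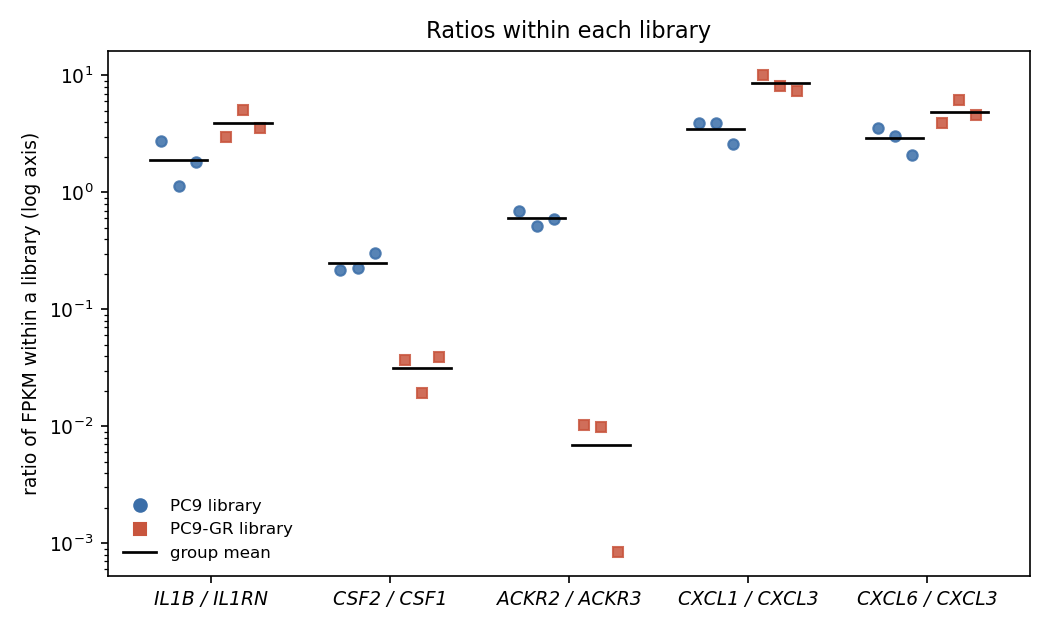
Ratios of FPKM within each library on a log axis, with PC9 as circles, PC9-GR as squares and bars at group means. The 5 ratios drawn do not overlap between the groups, and the ratio of ACKR2 to ACKR3 is the one that falls furthest. The ratio of IL18 to IL1B, which overlapped, is not drawn. For CSF2 to CSF1 and ACKR2 to ACKR3 the lack of overlap follows from the opposite directions of both genes.

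Genes of the NF-kB pathway moved in both directions. Of 30 factors and regulators 3 are listed: TNIP3, an inhibitor of NF-kB signalling, rose 6.48-fold to 19.5 ± 2.41 FPKM, TRAF3, which restrains the non-canonical branch, fell 2.35-fold from 26.7 ± 1.55 FPKM, and TRAF1, under the filter, measured 0.173 ± 0.0201 and 0.564 ± 0.0917 FPKM. Of 24 inflammatory target genes 7 are listed, with 4 called higher and 2 lower. MMP9, a matrix metalloprotease, and ICAM1, a leukocyte adhesion molecule, had the largest rises on the log2(FPKM + 1) scale, although by fold SAA1 (3.53) was above ICAM1 (3.36). ICAM1 went from 7.81 ± 2.16 to 26.2 ± 5.07 FPKM. Complement C3 fell 2.87-fold from 154.7 ± 26.8 FPKM and TNFAIP2 fell 2.65-fold from 118.5 ± 13.02 FPKM. The median difference of the 6 tested targets was 1.16.

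Markers of leukocytes were looked for because they also make these cytokines. Of 20 macrophage, monocyte and neutrophil markers 4 are listed, and their summed level ranged from 18.7 to 22.0 FPKM over the PC9 libraries and from 43.0 to 51.6 FPKM over the PC9-GR libraries. Most of that sum was CD68, at 18.6 ± 1.05 FPKM in PC9 and 38.4 ± 3.61 in PC9-GR. The q-value of CD68 in the authors' deposited table was 0.0699. ITGAM, ITGAX and CD68 were called higher, and ITGAM measured 0.570 ± 0.583 and 7.25 ± 2.12 FPKM. LYZ did not reach the filter and measured 1.09 ± 0.459 and 0.142 ± 0.125 FPKM, listed at the floor in 1 PC9-GR library. The defining markers CD14, CSF1R and PTPRC are not listed, so they have no value here. None of 13 T and NK cell markers is listed. Of 15 fibroblast and endothelial markers only PDGFRB is, called higher at 0.0948 ± 0.0423 and 3.28 ± 0.780 FPKM. The part of these markers in the rise of IL32 and CCL2 was not tested. In bulk RNA, fewer expressing cells and less RNA per cell cannot be told apart.

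The listed genes nearest to each member were compared by the table's own loci, whose build is unstated. CXCL3 (chromosome 4) had 5 of its 6 nearest listed genes higher, CCL2 (chromosome 17) also 5 of 6, IL1B (chromosome 2) 5 of 6 lower and ACKR2 (chromosome 3) 5 of 6 lower. CSF2 (chromosome 5), itself lower, had 1 of 6 lower, IL32 (chromosome 16), itself higher, had 2 of 6 higher, and IL18 (chromosome 11) 3 of 6 lower. In all, 26 of 42 neighbours had the direction of their member, where 51.1% of the 1705 listed genes were higher and 48.9% lower by the ratios of the authors' deposited table. Not all are separate or close: near ACKR2, VIPR1 and VIPR1-AS1 share 1 listed locus, as do EXOSC7 and ZDHHC3. The farthest neighbour lay 20056.9 kb from IL32 and 11386.5 kb from CSF2. IL1B lay 270.3 kb from IL1RN, and beside it SLC20A1, a phosphate carrier, and NT5DC4 had authors' log2 ratios of -1.60 and -2.85 in the authors' deposited table. Near ACKR2, VIPR1, a receptor of vasoactive intestinal peptide 267.2 kb away, had a ratio of -3.11. Near CSF2, the interferon factor IRF1 at 405.4 kb had 1.03. Near IL32, CCDC64B at 26.2 kb had -1.31. The part of position in these differences was not tested.

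**Figure D5:**
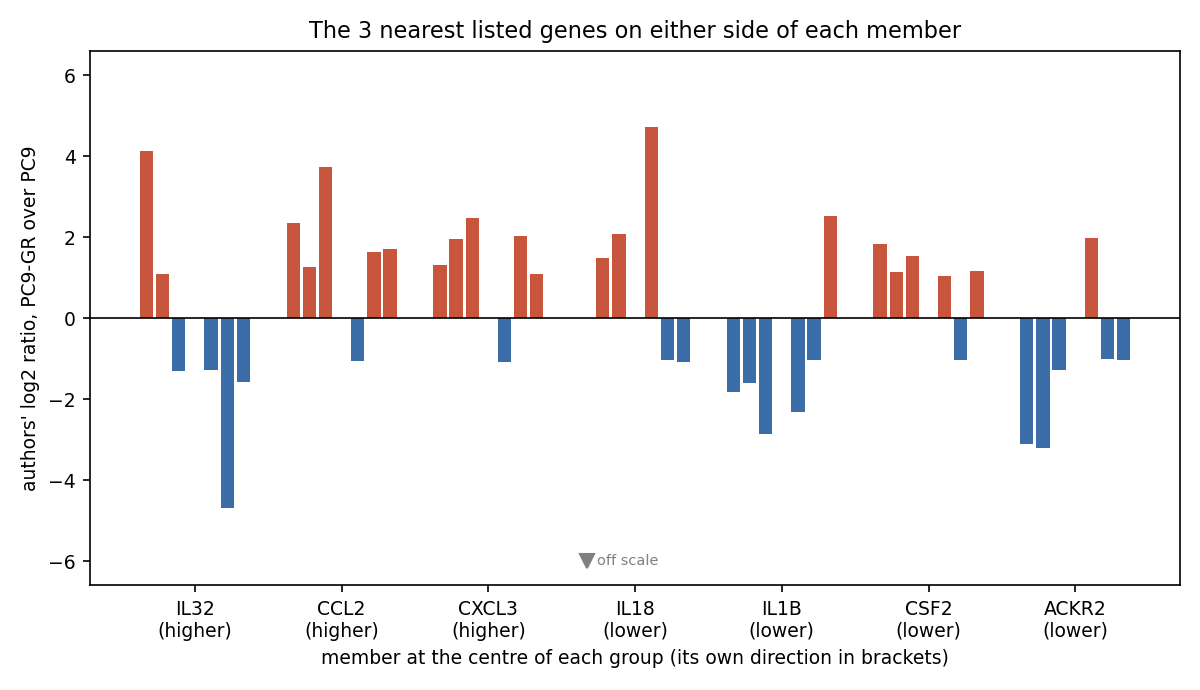
The authors' log2 ratio, PC9-GR over PC9, of the 3 nearest listed genes on either side of each member, left to right along the chromosome. Bars for CXCL3, CCL2, IL1B and ACKR2 mostly share their member's direction, those for CSF2 and IL32 mostly do not, and a grey triangle marks 1 gene near IL18 whose ratio (-12.4) falls off the scale because PC9-GR is at the floor.

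The tested genes most like each member over the 6 libraries were found by the root-mean-square difference of log2(FPKM + 1), each gene centred on its own mean. MMP9 (0.14) and the intermediate filament gene VIM (0.16) were nearest to IL32, CTD-2396E7.10 (0.068) and the sulfotransferase gene SULT1A1 (0.11) to CCL2, and ISCA2 (0.026) and the gap junction gene GJB2 (0.056) to IL18. MARCH1 (0.049) and HDHD2 (0.069) were nearest to CSF2, CST4 (0.13) and EXOSC7 (0.14) to IL1B, and PDE2A (0.13) and GPR116 (0.15) to ACKR2. All genes share the same 6 libraries in 2 groups, so this is a description of similar differences only.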

How the data were processed

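RNA of 3 PC9 and 3 PC9-GR cultures was analysed from 1 deposited table. TopHat and Cufflinks are named in the submitters' processing notes. Tool versions, build, annotation and strand handling were not given in the sources used here. Per the file headers, the authors deposited FPKM per library and per group, a ratio of group values with PC9-GR over PC9, the log2 of that ratio, and a p-value and q-value. The lowest deposited FPKM, 0.001 in a library and 0.0001 in a group, was read as a floor.

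The deposited FPKM values were put on the scale log2(FPKM + 1), which understates the change of low genes. limma 3.58.1 in R 4.3.3 (variance trend, group only, two-sided, Benjamini-Hochberg over 1207 genes) was checked on simulated data. The 498 genes under the filter were left out, and CXCL3 was given an exact permutation test computed in R. Ratios within a library were given the exact permutation test of scipy 1.17.1. Transcripts were aligned with blastn 2.17.0. The members and the 16 lists were chosen with earlier results of these data known, as were the tests. Named genes are the members, the genes of a list with 5 or fewer in the table (otherwise the 2 largest changes per direction), nearest listed neighbours and nearest profiles, and any further gene was chosen after its values were seen. A deposited coefficient of variation was left out, since nothing states how it was made. Low values gave no whole-read steps, so depth stays unknown. The alternatives were other pseudocounts, filters and scalings, no variance trend, a replicate block and leaving out each library.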

Additional observations from a re-analysis of the deposited data

How the results depend on the processing

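Over 15 alternatives, the member differences kept their direction, and IL32, IL18 and ACKR2 kept their calls in each. CCL2 and CSF2 kept theirs in the 14 that gave them a value: a filter at 5 FPKM removes both, which leaves 1 member called higher in place of 2 and 3 lower in place of 4. Over the 629 genes that passed it, that filter gave 234 calls higher and 393 lower, in place of 584 and 619. The balance moved too, with 62.7% of its calls lower, against 51.5% in the main fit. With equal library totals 57.5% of all calls were higher, against 48.5% as deposited. IL1B lost its call with equal library totals (difference in log2(FPKM + 1) -0.35, limma adjusted p = 0.133). CXCL3 gained one without the filter (difference 0.44, limma adjusted p = 0.00343). Its exact permutation p was 0.2 under quantile normalization (difference 0.22). It gave no value under the block or the filter at 5 FPKM. Leaving out each library in turn gave differences of 3.71 to 3.85 for IL32, 2.18 to 2.40 for CCL2, -1.70 to -1.51 for IL18, -1.39 to -1.16 for CSF2, -1.24 to -0.84 for IL1B, 0.39 to 0.50 for CXCL3 and -3.32 to -3.09 for ACKR2. Each of these fits called 2 members higher and 4 lower, beside 578 to 581 higher and 614 to 618 lower of all 1207 tested genes.

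The groups share replicate numbers. Same-numbered libraries had correlations of deviations of -0.10, 0.082 and 0.16, so the numbers were not taken to pair them, and not every library correlated best with its own number. With the replicate number as a block, 2 members were called higher and 4 lower, beside 586 higher and 619 lower of all 1207 tested genes. In that fit IL1B had a limma adjusted p of 0.00106. The lack of counts limits what can be said of CXCL3, of ACKR2 in PC9-GR and of CCL2 in PC9.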

Other observations

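Receptors and regulators of the JAK-STAT route, through which many cytokines signal, were split between the directions. Of 44 genes looked for, 6 are listed, with 3 called higher and 3 lower. IL20RA, a receptor chain for IL-20 family cytokines, fell 7.63-fold, from 12.96 ± 0.350 to 1.70 ± 0.112 FPKM (SD, n = 3). IL20RB, its partner chain, rose 2.69-fold, from 0.758 ± 0.162 to 2.04 ± 0.406 FPKM. IL27RA, a chain of the receptor for the EBI3-containing cytokine IL-27, rose 2.52-fold from 10.6 ± 0.398 FPKM, and LIFR, the receptor of leukaemia inhibitory factor, rose 2.05-fold. SOCS6, of the suppressor of cytokine signalling family, fell 2.89-fold from 29.3 ± 3.92 FPKM. PIAS2, a SUMO ligase, fell 2.04-fold, and its call was lost with equal library totals (limma adjusted p = 0.114).

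Of 17 TNF superfamily ligands, TNFSF9 and TNFSF10 are listed. TNFSF9, the ligand of 4-1BB, rose 6.38-fold, from 0.267 ± 0.121 to 1.71 ± 0.139 FPKM. TNFSF10, which encodes TRAIL, did not reach the filter, with 0.619 ± 0.292 FPKM for PC9 and 0.252 ± 0.192 for PC9-GR (exact permutation p = 0.1, the smallest possible). Serum amyloid SAA1, an acute phase protein, rose 3.53-fold, from 2.64 ± 0.883 to 9.31 ± 2.51 FPKM. SAA2 was also called higher. SAA1 and SAA2 are close copies, so their split is uncertain.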
